A study of Mus musculus with 5 samples.

Results

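The circadian clock genes described here were 10 genes taken by their symbols: the repressors Per1, Per2, Per3, Cry1 and Cry2, the activators Clock and Npas2, the nuclear receptors Nr1d1 and Nr1d2, and the output factor Dbp. They were 10 of the 23420 gene symbols measured, and all 10 were among the 13550 genes counted as expressed, which had a mean of at least 5 on the rlog scale over the 5 libraries. The rlog is a regularized log2 of the read count that pulls genes with few reads toward their mean, so a difference of 1 would be a doubling and differences of genes with few reads are understated.

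RNA was sequenced from the dentate gyrus of wild-type CD1 mice, an outbred strain, which were adult males 4 months old. LD mice were singly housed with a disk that could not turn, RUN mice were singly housed with a turning disk, and CE mice were housed socially with a fixed disk and with tunnels that were moved every day. All mice lived in these cages for 4 weeks under a reversed 12-h light cycle. Each library held RNA pooled from several mice, 8 each for LD, CE and RUN, and the RUN mice were sequenced again as a pool of the 4 that ran least, L-RUN, and a pool of the 4 that ran most, H-RUN.

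There was 1 library per group, so no test between groups was possible and no p-value is given. L-RUN and H-RUN are not independent of RUN, because they held the same mice, and every comparison with LD rests on the same LD library. CE and RUN differed from each other in company and in tunnels as well as in running, and these cannot be told apart. CE and LD differed in company and in tunnels at once, which cannot be separated here. RUN against the mixture of L-RUN and H-RUN was the only repeat measurement, and it gave a technical SD of 0.0365 for a difference between libraries, which leaves out the spread between mice. A difference of at least 0.3 in size was called, the cut-off of the study's methods, and this is 8.23 times the technical SD. The deposited values hold no read counts, so the depth behind each value is unknown. The clock time at which tissue was taken is not given in the sources used here, and for genes that cycle over the day a difference in sampling time between groups and a difference in level cannot be told apart. In these bulk samples fewer cells of a type and less RNA per cell cannot be told apart either.

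The mammalian clock is a feedback loop of transcription. CLOCK, or NPAS2 in its place, pairs with BMAL1, the product of Arntl, and switches on genes that carry E-box elements, among them the Per and Cry genes, whose proteins return to the nucleus and block the pair. A second loop runs through the REV-ERB receptors encoded by Nr1d1 and Nr1d2, which repress Arntl and other genes at RORE elements, while DBP and its relatives activate genes at D-box elements and NFIL3 represses them there. NPAS2 is the form of CLOCK best known from the forebrain.

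The element letters near the start sites of these genes are shown as a description. The lists by arm of the loop further below were not made from these letters. Cry1, for example, held an E-box and no RORE core in its window but is in the RORE list. RefSeq promoter windows of 300 bases on GRCm38.p6, from 250 before to 50 after a start site, were found for 9 of the 10 genes, as 12 windows, and were searched on both strands. The E-box CACGTG was found in windows of 2 of the 9 genes, Per1 and Cry1, and in those of 8.09% of all genes with such a window. The D-box TTATGTAA was found for Per3 alone among the 9, as a pair, and is found for 1.11% of all genes. Its form TTACGTAA (0.126% of all genes), the cyclic AMP element TGACGTCA (2.03%) and the RORE core TAGGTCA (2.97%) had no match in the 12 windows. A match of letters is a description and not a binding site. Each sequence is printed 5′ to 3′ on the strand of the gene, with the element in capitals: the E-box of Per1 at chr11:69098765-69098806 (plus strand, 166 bases before a start site), the E-box of Cry1 at chr10:85185091-85185132 (minus strand, 60 bases before), and the D-box pair of Per3 at chr4:151044798-151044888 (minus strand, 205 and 158 bases before).
Per1: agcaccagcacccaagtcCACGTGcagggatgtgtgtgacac
Cry1: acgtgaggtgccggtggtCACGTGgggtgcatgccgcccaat
Per3: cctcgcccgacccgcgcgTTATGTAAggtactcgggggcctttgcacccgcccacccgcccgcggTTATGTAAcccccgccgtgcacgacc

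Among 39 other genes of the clock pathway, 30 had a window. The E-box was found in 5 of these 30 genes (Tef, Bhlhe41, Ciart, Tspan4 and Sirt1), the D-box in 2 (Csnk2b and Timeless), the cyclic AMP element in 1 (Hlf) and the RORE core in 2 (Arntl and Nfil3). Ciart, a repressor of the CLOCK and BMAL1 pair, held 3 E-boxes, of which the first is printed from chr3:95882321-95882362 (minus strand, 116 bases before a start site). The RORE cores are printed from chr7:113207530-113207558 for Arntl (plus strand, 30 bases after a start site) and from chr13:52981034-52981062 for Nfil3 (minus strand, 12 bases before, with the element read on the other strand as TGACCTA). No printed element overlapped another.
Ciart: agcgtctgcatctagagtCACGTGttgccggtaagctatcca
Arntl: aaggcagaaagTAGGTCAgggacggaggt
Nfil3: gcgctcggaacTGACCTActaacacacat

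All 10 clock genes were well above the limit for expression in every library. On the scale of rlog minus log2 of the transcript length in kb, which is the only one on which levels of different genes are set side by side here, the level in LD ran from 10.03 for Nr1d1 through 9.88 for Cry2, 9.47 for Nr1d2, 8.84 for Per3, 8.62 for Per1, 8.55 for Dbp, 8.09 for Clock, 7.72 for Per2 and 7.44 for Cry1 to 7.18 for Npas2. The 2 REV-ERB genes and Cry2 thus stood at the top, and Npas2 was lowest. Neighbours whose gap was smaller than the larger of their own ranges over the 5 libraries were Nr1d1 and Cry2 (gap 0.155), Per3 and Per1 (0.227), Per1 and Dbp (0.0667), and Dbp and Clock (0.455), so these neighbours did not differ beyond their spread. The other 5 gaps were larger than both ranges.

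**Figure D1:**
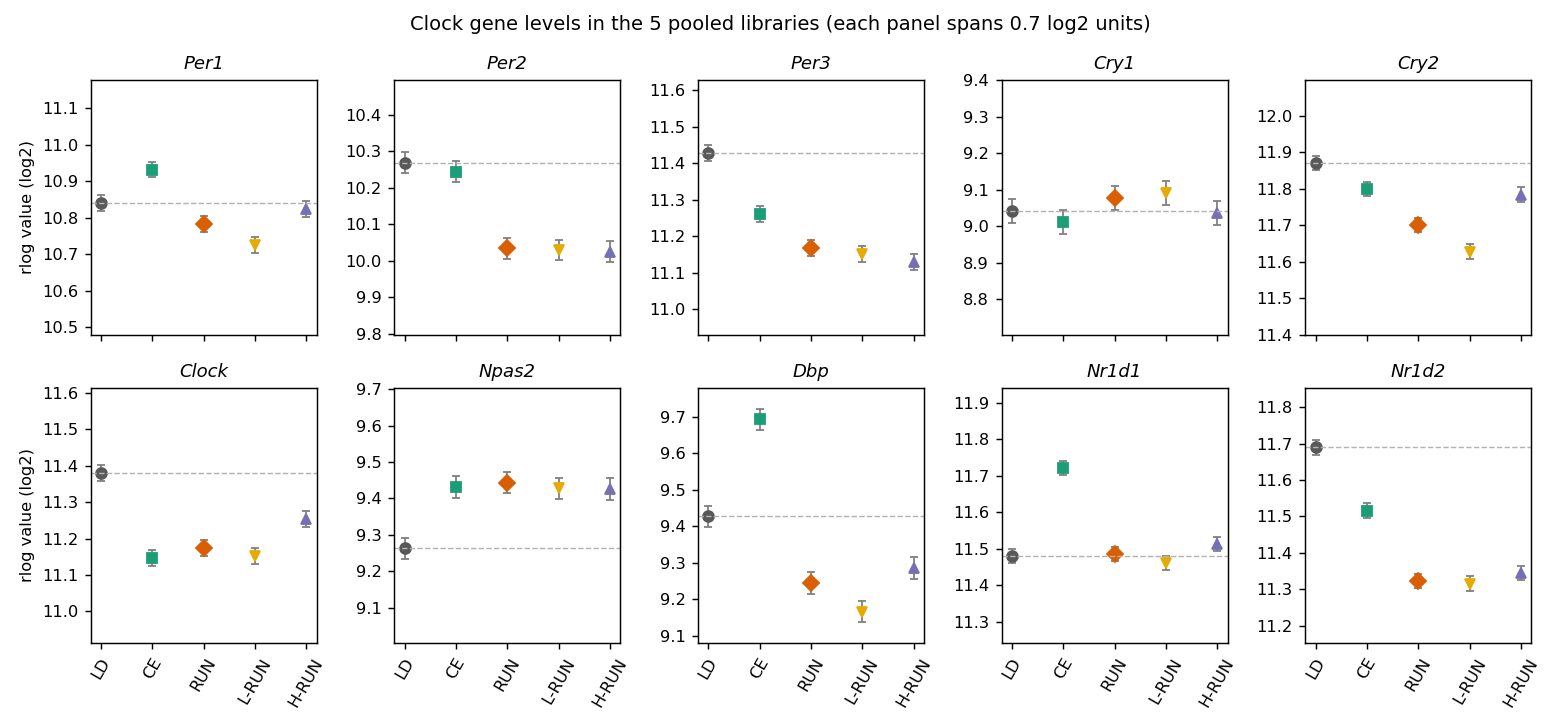
The rlog value (log2 scale) of each of the 10 clock genes in each of the 5 libraries, 1 point per library, with bars of 1 technical SD of a single library to either side, a dashed line at the LD value and panels of equal span. The bars leave out the spread between mice. For Nr1d2 the points run from 11.69 in LD to 11.32 in RUN and L-RUN.

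The clock gene called in all 3 comparisons of runners with LD was Nr1d2, which encodes REV-ERB beta (chromosome 14, 18204054 to 18239127, minus strand). Its rlog value was 11.69 in LD, 11.52 in CE, 11.32 in RUN, 11.34 in H-RUN and 11.32 in L-RUN. The 3 running libraries lay close together, below CE, and CE lay below LD. The difference from LD was -0.37 in RUN, -0.35 in H-RUN and -0.37 in L-RUN, each past the cut-off, and these correspond to 0.776, 0.787 and 0.772 of the LD level. In CE the difference was -0.17 and was not called. Ordered from the lowest difference among the 13550 expressed genes, Nr1d2 was at rank 52 in RUN, 41 in H-RUN and 176 in L-RUN. Where the mean of LD and CE was the baseline in place of LD, the difference was -0.28 in RUN, -0.26 in H-RUN and -0.29 in L-RUN and was no longer called.

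Nr1d1, which encodes REV-ERB alpha and is often studied as a pair with Nr1d2, had another pattern. Its rlog value was 11.48 in LD, 11.72 in CE, 11.49 in RUN, 11.51 in H-RUN and 11.46 in L-RUN. CE alone stood apart, at 0.24 above LD, while the running libraries differed from LD by 0.01 (RUN), -0.02 (L-RUN) and 0.03 (H-RUN). The CE difference was not called, and its rank was 109 from the highest of 13550. Nr1d1 (chromosome 11, 98767932 to 98775333) shares 263 exon bases, 9.67% of its exonic length, with Thra on the opposite strand. The counting is not stated to use strand, so how reads in the shared bases were assigned is not known. Thra, a thyroid hormone receptor gene, differed from LD by 0.07 in CE and by -0.12 in RUN.

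The 3 Per genes are given in the order of how far the runners lay from LD. Per3 (chromosome 4, 151003652 to 151044665) had an rlog value of 11.43 in LD, 11.26 in CE, 11.17 in RUN, 11.13 in H-RUN and 11.15 in L-RUN. It was highest in LD, and all 4 other libraries lay below. The difference from LD was -0.17 in CE, -0.26 in RUN, -0.30 in H-RUN and -0.28 in L-RUN, so that Per3 met the cut-off in H-RUN by less than 0.001. Centring the differences on their median moved the H-RUN value to -0.297 and ended that call. The ranks from the lowest were 188 in RUN, 64 in H-RUN and 379 in L-RUN.

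Per2 (chromosome 1, 91415982 to 91459324, minus strand), a repressor whose loss shortens the daily rhythm in mice, had an rlog value of 10.27 in LD, 10.24 in CE, 10.03 in RUN, 10.02 in H-RUN and 10.03 in L-RUN. LD and CE lay close together, with a difference of -0.02, and the 3 running libraries lay together below both. The difference from LD was -0.23 in RUN, -0.24 in H-RUN and -0.24 in L-RUN, none of them called. Its value in RUN was also lower than in CE, with a difference of -0.21. The technical SD for genes of its level was 0.0403.

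Per1 (chromosome 11, 69095217 to 69109960, plus strand), the Per gene known to respond within hours to light, neuronal activity and glucocorticoids, had an rlog value of 10.84 in LD, 10.93 in CE, 10.78 in RUN, 10.82 in H-RUN and 10.72 in L-RUN. No difference from LD was called, and the largest in size was -0.12 in L-RUN. The H-RUN value lay 0.02 under LD, a gap smaller than the technical SD of 0.0308.

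The Cry genes encode the repressors that hold the CLOCK and BMAL1 pair most strongly in check. Cry2 (chromosome 2, 92403646 to 92434043) had an rlog value of 11.87 in LD, 11.80 in CE, 11.70 in RUN, 11.78 in H-RUN and 11.63 in L-RUN. It was highest in LD and lowest in L-RUN, and the difference from LD was -0.17 in RUN, -0.09 in H-RUN and -0.24 in L-RUN. Cry1 (chromosome 10, 85131700 to 85185064) had an rlog value of 9.04 in LD, 9.01 in CE, 9.08 in RUN, 9.04 in H-RUN and 9.09 in L-RUN. Its range of 0.079 was the narrowest of the 10 genes. Neither Cry gene was called in any comparison. Cry2 shares 149 exon bases, 3.43% of its exonic length, with D930015M05Rik on the opposite strand, a gene whose rlog value in LD was 4.45.

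The 2 activator genes departed from LD in opposite directions. Clock (chromosome 5, 76209868 to 76304792) had an rlog value of 11.38 in LD, 11.15 in CE, 11.17 in RUN, 11.25 in H-RUN and 11.15 in L-RUN, so LD was above every other library. The difference was -0.23 in CE, -0.21 in RUN, -0.13 in H-RUN and -0.23 in L-RUN. Npas2 (chromosome 1, 39193731 to 39363236) had an rlog value of 9.26 in LD, 9.43 in CE, 9.44 in RUN, 9.43 in H-RUN and 9.43 in L-RUN. LD was below the other 4, which lay close together. The differences from LD of 0.16 to 0.18 were more than 3 times the technical SD of 0.0417 for genes of its level. That SD leaves out the spread between mice, and all 4 differences rest on the same LD library, so an offset of that library alone was not tested. They lay in the highest 5% of all expressed genes in CE, RUN and H-RUN but not in L-RUN. No difference of either gene was called.

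Clock has the longest transcript of the 10 genes, at 9.74 kb, and differences from LD moved with transcript length over all genes. In L-RUN the median difference was 0.0754 over 2447 genes under 2 kb and -0.109 over 2095 genes over 6 kb, and in RUN these medians were 0.0609 and -0.0819. With this trend taken out, Clock was at -0.17 in CE, -0.11 in RUN, -0.06 in H-RUN and -0.10 in L-RUN, while Nr1d2, at 4.66 kb, was at -0.34 in RUN and remained past the cut-off in all 3 running libraries, at -0.32 in H-RUN and -0.33 in L-RUN. Per2 was then at -0.18 in RUN and Per3 at -0.21. Dbp, with the shortest transcript, 1.84 kb, moved away from LD, to -0.23 in RUN and to -0.32 in L-RUN, where it was then called.

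**Figure D2:**
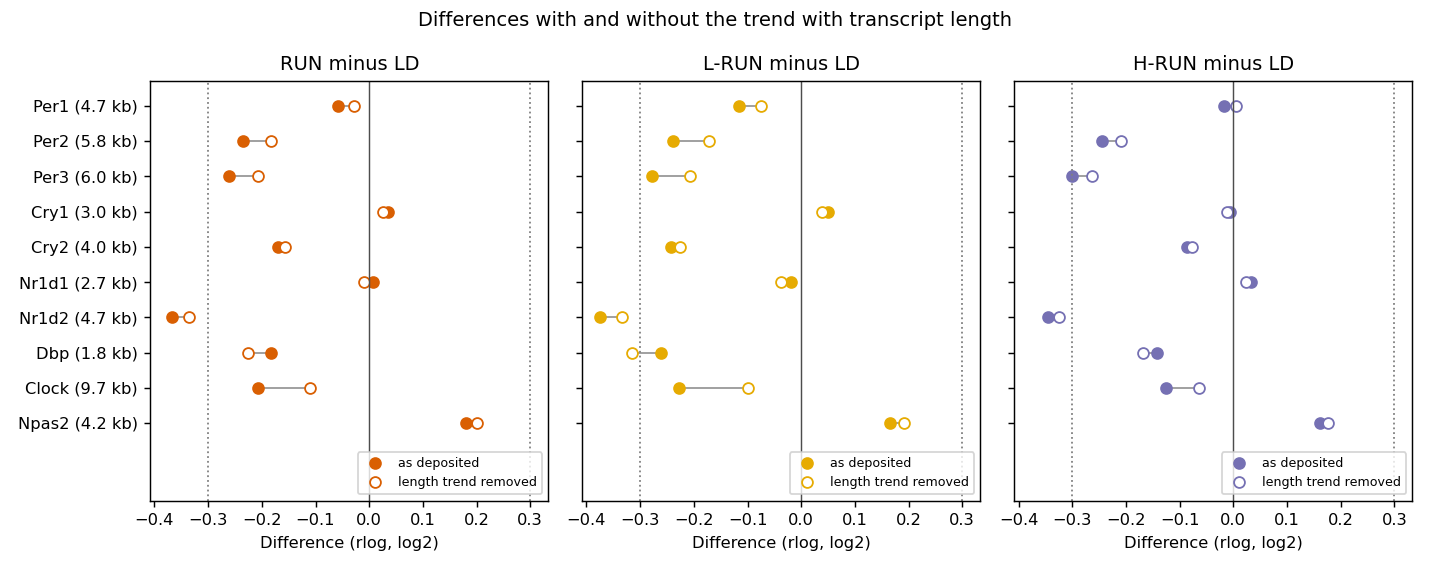
The difference from LD of each clock gene on the rlog (log2) scale in RUN, L-RUN and H-RUN, as deposited (filled points) and after the trend with transcript length over all expressed genes was taken out (open points), with the length beside each name and dotted lines at the cut-off. Clock moves toward 0, from -0.21 to -0.11 in RUN, whereas Nr1d2 stays past -0.3.

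Dbp, a transcription factor whose level swings widely over the day in many tissues, had the widest range of the 10 genes, 0.528. Its rlog value was 9.43 in LD, 9.69 in CE, 9.25 in RUN, 9.29 in H-RUN and 9.17 in L-RUN. CE was above LD and every running library was below it. The 3 running libraries, which are not independent, thus lay under both LD and CE, as for 16.2% of all expressed genes. The difference from LD was 0.27 in CE, -0.18 in RUN, -0.14 in H-RUN and -0.26 in L-RUN, and none was called. On the baseline averaged over LD and CE the difference was -0.32 in RUN and -0.39 in L-RUN, both called. Between RUN and CE, a comparison added after the data were seen, the difference was -0.45, or 0.733 of the CE level, at rank 17 from the lowest of 13550. Dbp (chromosome 7, 45705088 to 45710203, plus strand) shares 539 exon bases, 29.3% of its exonic length, with Sphk2 on the opposite strand. Sphk2, a sphingosine kinase gene, was above LD in all 4 other libraries, by 0.12 in CE, 0.15 in RUN, 0.16 in H-RUN and 0.19 in L-RUN. In CE both genes lay above LD, and in the runners they lay on opposite sides of it. As for Nr1d1, how reads in the shared bases were assigned is not known. The part of Sphk2 reads in the Dbp values was not tested.

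**Figure D3:**
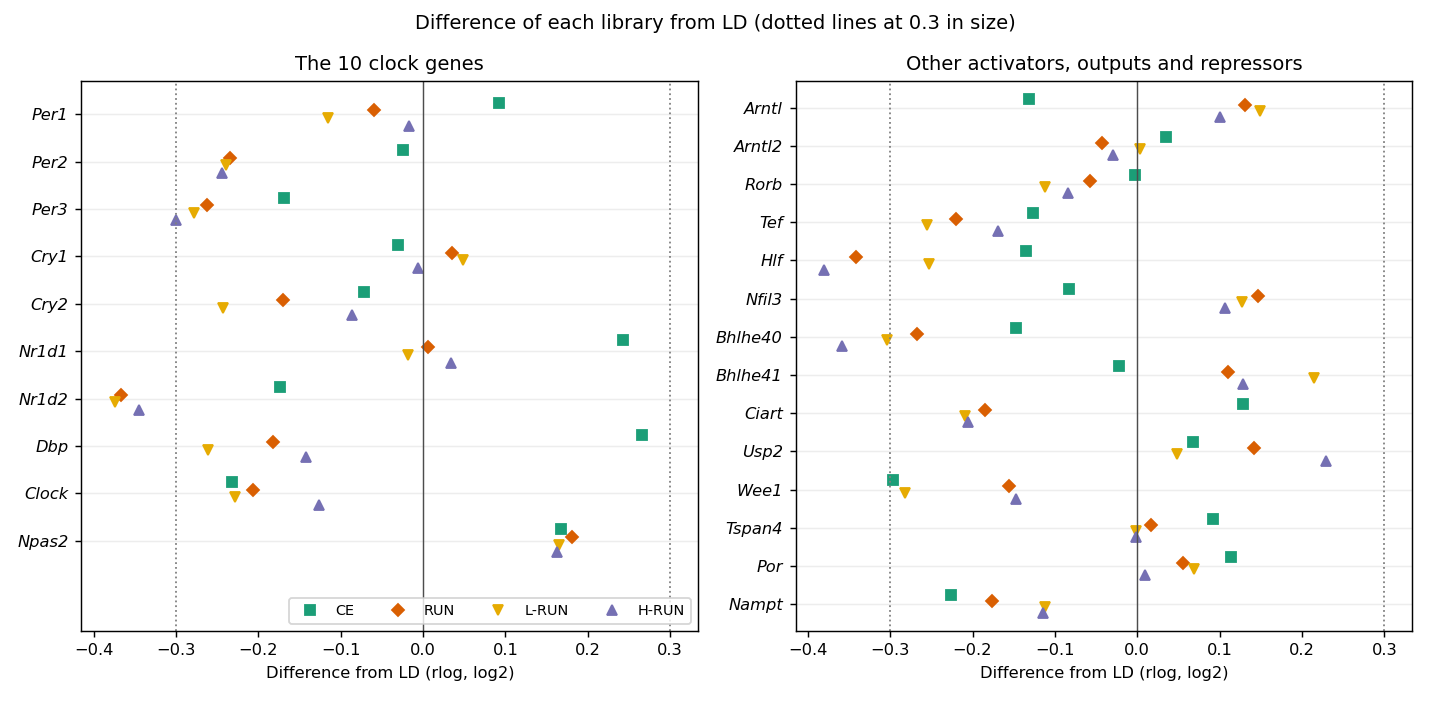
The difference from LD on the rlog (log2) scale in CE, RUN, L-RUN and H-RUN, 1 point per library, for the 10 clock genes (left) and for other activators, outputs and repressors of the clock (right), with dotted lines at the cut-off of 0.3. Nr1d2 lies past the lower line in the 3 running libraries and Per3 on it in H-RUN, while Arntl lies above LD in them, at 0.10 to 0.15.

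Over the 10 genes, the count of called differences was 0 in CE, 1 in RUN and 1 in L-RUN, both Nr1d2, and 2 in H-RUN, Nr1d2 and Per3, all of them lower than LD. Of all expressed genes, 0.598% were called in CE, 1.31% in RUN, 0.827% in H-RUN and 3.13% in L-RUN. At a lower cut-off of 0.2, 4 of the 10 genes were lower in RUN, against 3.2% of all expressed genes, 6 in L-RUN, against 6.7%, and 3 in H-RUN, against 1.97%. In CE 1 gene, Clock, was lower, against 1.82%, and 2 genes, Dbp and Nr1d1, were higher, against 1.96%. Between RUN and CE 1 gene, Dbp, was called, against 0.834%, and 3 genes, Dbp, Nr1d1 and Per2, were lower by at least 0.2, against 2.35%. All these counts are of the values as deposited. With the length trend taken out, Clock, at -0.11, and Per2, at -0.18, were no longer lower by 0.2 in RUN, while Dbp was, at -0.23. In L-RUN Clock, at -0.10, and Per2, at -0.17, were no longer lower by 0.2 either.

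The median difference from LD over the 10 genes was -0.03 in CE, -0.18 in RUN, -0.11 in H-RUN and -0.23 in L-RUN, beside medians over all expressed genes of -0.0018, -0.0013, -0.0035 and -0.0018 in the same order. In the lowest 5% of all expressed genes were 3 of the 10 in CE, 5 in RUN, 3 in H-RUN and 6 in L-RUN. In the highest 5% were 3 in CE, 1 in RUN, 1 in H-RUN and 0 in L-RUN. With the trend with transcript length taken out, the median of the 10 genes was -0.13 in RUN, -0.0698 in H-RUN and -0.14 in L-RUN. As deposited, in CE the clock genes lay toward both ends of the distribution, and in the runners mainly toward the lower end. For 6 of the 10 genes, Per1, Per2, Per3, Cry2, Dbp and Nr1d2, all 3 running libraries were under both LD and CE, which held for 16.2% of all expressed genes.

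**Figure D4:**
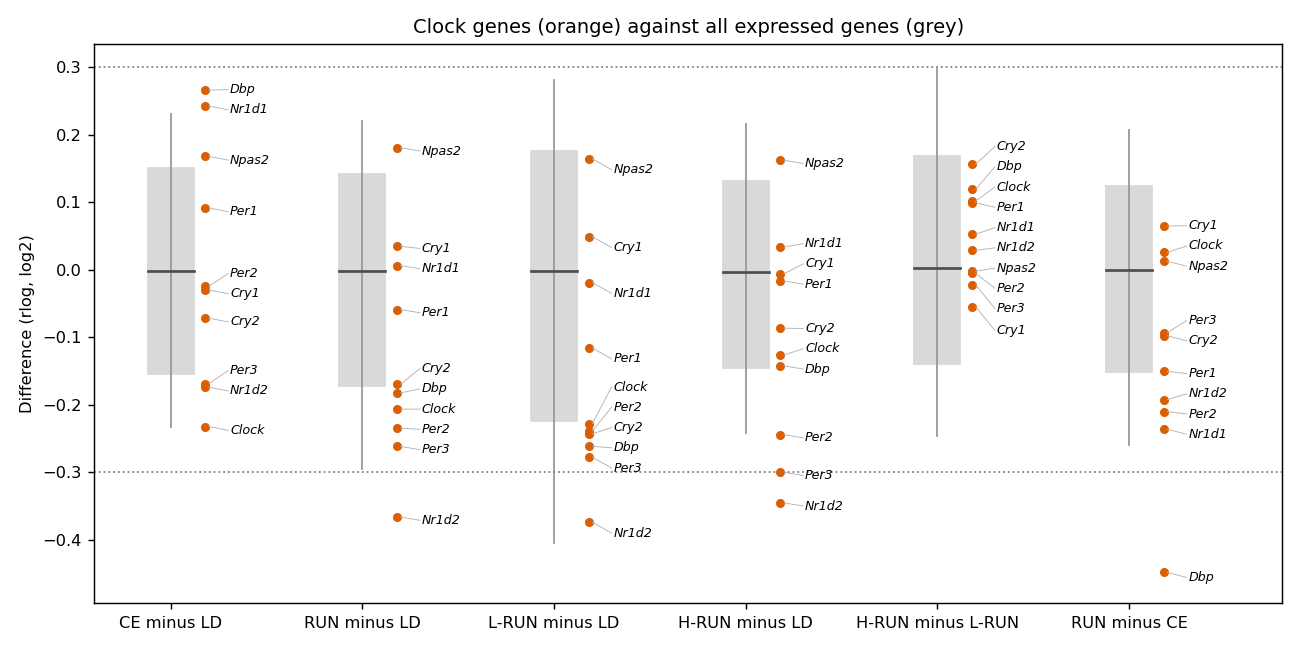
The difference on the rlog (log2) scale in each comparison, with the 13550 expressed genes in grey (box, middle 90%; thin line, middle 98%; bar, median), the 10 clock genes as orange points and dotted lines at the cut-off. The median of the clock genes is -0.18 in RUN and -0.23 in L-RUN, where the medians of all genes are -0.0013 and -0.0018.

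No clock gene was called between the pools that split the runners by distance. Between H-RUN and L-RUN 0 of the 10 genes were called, against 1.54% of all expressed genes, and the differences ran from -0.05 for Cry1 to 0.16 for Cry2, with a median of 0.04. For 7 of the 10 genes the 3 running libraries lay within 0.1 of each other. The exceptions were Cry2, with 11.78 in H-RUN and 11.63 in L-RUN, Dbp, with 9.29 and 9.17, and Clock, with 11.25 and 11.15, each higher in the pool of high runners. Over all expressed genes the lower and upper quartiles of H-RUN minus L-RUN were -0.0514 and 0.0599. Closeness of these pools was thus common and not particular to the clock genes. RUN differed from the mixture of the 2 pools by -0.0304 for Clock to 0.0270 for Per3, and for all 10 genes by less than the residual SD over all genes, 0.0316.

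Markers of the membranes that surround the brain differed between the running libraries. All 12 leptomeningeal markers on the list were expressed. They were called higher than LD for 4 of 12 in CE, 8 in RUN, 0 in H-RUN and 9 in L-RUN, while 2 were called lower in H-RUN. Their summed level was 12.67 in LD, 12.91 in CE, 13.55 in RUN, 12.52 in H-RUN and 14.11 in L-RUN. A summed level is the log2 of the sum of values taken off the log scale, so the highest genes weigh most. Ptgds alone was at 11.64 in LD, 11.94 in CE, 12.98 in RUN, 11.54 in H-RUN and 13.61 in L-RUN. None of these markers was at 0 in any library. Those called higher in RUN were Ptgds, Slc6a13, Slc13a4, Igf2, Col1a2, Fmod, Aldh1a2 and Slc22a6, those in L-RUN the same and Col1a1, and those in CE Ptgds, Dcn, Col1a1 and Col1a2, while Dcn and Ogn were called lower in H-RUN. Lum was called in none, and Ogn was at -0.26 in RUN. Between H-RUN and L-RUN 11 of the 12 were called lower and their median difference was -0.73. The 8 dentate granule neuron markers, which define the tissue named in the labels, were all expressed, with a summed level of 15.31 in CE to 15.45 in LD, and in L-RUN Prox1 was called lower, at -0.41, and C1ql2 higher, at 0.37. The 8 CA1 and CA3 markers had summed levels of 12.40 in LD, 12.47 in CE, 12.32 in RUN, 12.45 in H-RUN and 12.18 in L-RUN, with 4 called lower in L-RUN. The part of these cell types in the differences of the clock genes was not tested.

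Of the 39 other genes of the clock pathway 37 were expressed. Called differences from LD numbered 1 of 37 in CE (0.598% of all expressed genes), 1 in RUN (1.31%), 2 in H-RUN (0.827%) and 1 in L-RUN (3.13%), all lower, and 0 between H-RUN and L-RUN (1.54%). Hlf, a relative of Dbp that acts at the same D-boxes, had an rlog value of 12.27 in LD, 12.14 in CE, 11.93 in RUN, 11.89 in H-RUN and 12.02 in L-RUN, and was called in RUN, at -0.34, and in H-RUN, at -0.38. Its RUN call ended with the length trend taken out, at -0.29, and on the baseline averaged over LD and CE. Tef, the other relative, was lower by less, with differences of -0.13 in CE, -0.22 in RUN, -0.17 in H-RUN and -0.26 in L-RUN. All 3 genes of this family were thus below LD in every running library, with Hlf and Tef but not Dbp below LD in CE too.

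Bhlhe40, which encodes DEC1, a repressor that competes at E-boxes, had an rlog value of 11.10 in LD, 10.96 in CE, 10.84 in RUN, 10.75 in H-RUN and 10.80 in L-RUN. It was called in L-RUN, at -0.304, just past the cut-off, and in H-RUN, at -0.36. The L-RUN call ended with quantile normalization, and both calls ended on the baseline averaged over LD and CE. Its relative Bhlhe41 lay on the other side of LD in the runners, at 0.11 in RUN, 0.13 in H-RUN and 0.21 in L-RUN. Ciart, listed under its older symbol Gm129, was like Dbp highest in CE and below LD in the runners, with 7.38 in LD, 7.51 in CE, 7.20 in RUN, 7.18 in H-RUN and 7.17 in L-RUN, and was the 1 other clock gene called between RUN and CE, at -0.31. Wee1, a cell cycle kinase gene driven by E-boxes, was just short of the cut-off in CE, at -0.296.

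Arntl, the gene of BMAL1 and a target that the REV-ERB receptors repress, lay on the other side of LD from Nr1d2 in the runners. Its rlog value was 10.15 in LD, 10.02 in CE, 10.28 in RUN, 10.25 in H-RUN and 10.30 in L-RUN. Its differences from LD were -0.13 in CE, 0.13 in RUN, 0.10 in H-RUN and 0.15 in L-RUN, and none was called. Nfil3, which also carries the RORE core printed above, was at -0.08, 0.15, 0.11 and 0.13 in the same order.

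Set out by arm, the 5 genes known to be driven through RORE elements, Arntl, Clock, Npas2, Cry1 and Nfil3, had a median difference from LD of -0.08 in CE, 0.13 in RUN, 0.10 in H-RUN and 0.13 in L-RUN, with 4 of 5 above LD in RUN and in L-RUN and 3 of 5 in H-RUN. Clock was below LD in each. Of all expressed genes, 49.3% were above LD in RUN, 48% in H-RUN and 49.3% in L-RUN. A first list of 11 genes driven through E-boxes or D-boxes, Per1, Per2, Per3, Cry2, Dbp, Nr1d1, Nr1d2, Tef, Hlf, Ciart and Bhlhe41, had medians of -0.02, -0.18, -0.17 and -0.24 in the order CE, RUN, H-RUN, L-RUN, with 7, 9, 9 and 10 of 11 below LD. A second list of 11 clock outputs and repressors, also set down as driven through E-boxes and D-boxes, was nearer to balance. It shares Tef, Hlf, Ciart and Bhlhe41 with the first list and adds Nfil3, Bhlhe40, Usp2, Wee1, Tspan4, Por and Nampt. Its medians were -0.08, -0.16, -0.11 and -0.11, with 7, 6, 7 and 7 of 11 below LD. Nfil3 is both in this second list and in the RORE list, and was above LD in RUN, H-RUN and L-RUN. Of the first list 7 genes are among the 10 clock genes. Called in the first list were 2 genes in RUN, Nr1d2 and Hlf, 3 in H-RUN, Nr1d2, Per3 and Hlf, and 1 in L-RUN, Nr1d2, beside 1.31%, 0.827% and 3.13% of all expressed genes. With the length trend taken out, Hlf in RUN and Per3 in H-RUN, at -0.29 and -0.26, were no longer called. In RUN against CE, 10 of 11 genes of the first list and 6 of 11 of the second were lower, beside 50.4% of all expressed genes. The 5 RORE genes were all higher, beside 49.6%. However, Npas2, at 0.0127, and Clock, at 0.0258, were higher by less than the technical SD for genes of their level, 0.0417 and 0.0308. Clock, Npas2 and Cry1 of the RORE list are also among the 10 clock genes.

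The enzymes that modify PER and CRY set the pace of the clock by marking these proteins or removing the marks. The 12 modifiers had a median difference from LD of -0.06 in CE, -0.05 in RUN, -0.03 in H-RUN and -0.09 in L-RUN, and only Ppp1cb, the gene of a phosphatase subunit that acts on PER, was called, at -0.40 in CE. The 11 partners had medians of -0.02, -0.06, -0.03 and -0.06 in that order, with none called, and the largest difference among them was that of Ncor1, the corepressor used by the REV-ERB receptors, at -0.22 in L-RUN.

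For the 3 clock genes with a range of at least 0.3, the 3 expressed genes with the most similar values were found by Euclidean distance over the 5 libraries after each gene was centred on its mean. For Nr1d2 these were Setbp1 (distance 0.0323), D430041D05Rik (0.0397) and Adamts1 (0.0438), and Setbp1 was at -0.38 in RUN versus LD. For Per3 they were Parvg (0.0437), Mtrr (0.0544) and Cdh12 (0.0593). For Dbp they were Sez6 (0.0501), Fat1 (0.0951) and Kit (0.106), and Sez6 was 0.22 above LD in CE and at -0.18 in RUN. None of these 9 genes belongs to the lists of clock genes used here, and over 5 libraries a small distance is a description only.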

How the data were processed

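The authors made libraries from poly(A) RNA pools and deposited one table per library of rlog values, a log2 transform of gene counts made with DESeq2; the submitters' processing notes name CASAVA 1.8.2, TopHat2 2.0.10, HTSeq, DESeq2 1.10.1 and the mm10 build. Whether counting used strand is not given in the sources used here. The 5 tables were joined by symbol, and differences were computed over all 23420 symbols and ranked among the 13550 with a mean rlog of at least 5 (Python 3.11.15, pandas 2.3.3, numpy 2.4.6). The members and lists were chosen with earlier results of these data known. Named were the 10 members, every listed gene at or past 0.3 in some comparison or else the gene farthest from LD in its list, and the 3 nearest profiles of members with a range of at least 0.3; other listed genes and the overlapping genes were named after their values were seen. RUN minus CE was added after the data were seen. The technical SD came from the median absolute deviation of RUN from the linear mean of L-RUN and H-RUN. Alternatives were cut-offs of 0.2 and 0.4, median centring, quantile normalization, removal of a lowess trend (statsmodels 0.14.6, fraction 0.3) with transcript length (GENCODE, found for 99.3% of expressed genes), minimum means of 7 or none, and a baseline averaged over LD and CE. Gene coordinates are from GENCODE on GRCm38 and promoter windows from RefSeq. The calculation was tested on simulated data.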

Additional observations from a re-analysis of the deposited data

Results flagged for a closer look

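Gsk3b, the gene of a kinase that phosphorylates clock proteins, lay on opposite sides of LD in the 2 pools of runners. Its difference from LD was -0.134 in L-RUN and 0.0456 in H-RUN on the rlog scale. With 1 library per pool the difference between the pools was not tested, and neither value was called. With the trend with transcript length over all genes taken out, the H-RUN value was 0.10 and the L-RUN value -0.02, so that the L-RUN value was then smaller than the technical SD of 0.0365.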

How the results depend on the processing

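No paired analysis was possible because each group had 1 library and no comparison had a test. For the same reason no replicate could be left out. At a cut-off of 0.2 the members called numbered 3 in CE (1 lower), 4 in RUN, 6 in L-RUN and 3 in RUN minus CE, all lower but for CE. The other clock genes called, of 37, numbered 3 in CE, 4 in RUN, 9 in L-RUN, 4 in H-RUN, 1 between H-RUN and L-RUN and 4 in RUN minus CE. Those lower by at least 0.2 numbered 3 in CE, 4 in RUN, 8 in L-RUN, 3 in H-RUN and 2 in RUN minus CE. Of all expressed genes 1.82%, 3.2%, 6.7%, 1.97% and 2.35% were lower by at least 0.2 in that order. At a cut-off of 0.4 there were 0 members in H-RUN, L-RUN and RUN, and 0 other clock genes in these and in RUN minus CE. The members called in H-RUN, all lower, numbered 1 with median centring, with quantile normalization and with the length trend removed, and 0 with a baseline averaged over LD and CE. With quantile normalization 2 other clock genes were called in CE and 0 in L-RUN. With the length trend removed 2 members, both lower, were called in L-RUN and 0 other clock genes in RUN, and the members' median difference was -0.13 in RUN, -0.0698 in H-RUN and -0.14 in L-RUN. With that averaged baseline the other clock genes called numbered 0 in RUN, 1 in H-RUN and 0 in L-RUN, and the median was -0.12 in RUN and -0.18 in L-RUN. On that baseline the 1 member called in RUN and in L-RUN was Dbp, at -0.32 and -0.39, and not Nr1d2. The causes of these shifts were not tested, except that the cut-offs act by construction. The share of all expressed genes was computed only on the values as deposited, at 0.3 in size and on single sides at 0.2. Counts in the other settings, and counts of both sides at 0.2, thus have no share beside them. They cannot be read as a result about the clock genes. Of 210 recomputed differences of single members 8 changed sign, 0 of them with a size over 2 technical SD. The technical SD leaves out the spread between mice, so differences of single libraries cannot be assigned to housing, and the depth of the libraries is unknown.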

Other observations

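Per1 also belongs to the genes that respond to neuronal activity and to glucocorticoids, and Per2 to those that respond to body temperature, so lists of such genes were set beside them. Of 10 immediate early genes 9 were expressed, with a median difference from LD of 0.07 in CE, -0.11 in RUN, -0.05 in H-RUN and -0.12 in L-RUN. Arc, a synaptic immediate early gene, was called lower in RUN, at -0.33, and in L-RUN, at -0.45, and Nr4a1 in L-RUN, at -0.35. No gene of this list was called in CE or H-RUN. The 10 glucocorticoid response genes had medians of -0.01, 0.04, 0.01 and -0.00 in that order, and only Sgk1, a kinase gene induced by glucocorticoids, was called, at 0.35 in RUN and 0.55 in H-RUN. The 8 temperature response genes had medians of 0.04, 0.02, 0.03 and 0.03 in that order, and only Hspa1b, a heat shock gene, was called, at 0.30 in L-RUN.

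Among markers of other cells, C1ql2, a granule neuron gene, was higher than LD in the 3 running libraries, at 0.37 in RUN, 0.40 in H-RUN and 0.37 in L-RUN. Fibcd1, a CA1 gene, was at 0.31 in CE, -0.46 in RUN, -0.52 in H-RUN and -0.46 in L-RUN. The other CA1 and CA3 markers called against LD were Wfs1 (-0.33), Spink8 (-0.30) and Pou3f1 (-0.42), all in L-RUN, and Bok, which was higher in H-RUN, at 0.41. In H-RUN 5 of these 8 markers were above LD. Of 6 astrocyte markers 1 was called, Slc1a3 at -0.30 in L-RUN, and of 6 endothelial markers 1, Flt1 at -0.31 in RUN and -0.43 in L-RUN. None of the 6 oligodendrocyte markers or the 6 microglia markers was called, with the largest differences at -0.23 for Mbp and -0.25 for Csf1r, both in L-RUN. Of 6 choroid plexus markers 2 were expressed, and Ttr was called higher in CE, at 0.62. Ptgds, a leptomeningeal marker, was at 1.97 in L-RUN.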
